A study of Homo sapiens with 6 samples.

Results

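Semaphorins, netrins and Slits are guidance cues, first described as signals that steer growing axons, and plexins, Robo receptors, DCC, neogenin and the UNC5 receptors are the membrane proteins that read them. The set covers the genes of these families in the deposited gene-named table, chosen by symbol alone: SEMA, PLXNA to PLXND, ROBO, SLIT, NTN or UNC5 followed by a number or letter, without the SLITRK genes, plus DCC and NEO1. It held 49 of 17766 genes, each with a single row, and 39 of them were bright enough to test. The symbol rule also took in UNC50, a Golgi protein that is not a netrin receptor, and UNC5CL, an intracellular relative of the UNC5 receptors, which leaves 47 guidance genes. The groups are WM266-4, melanoma cells derived from a metastasis in the skin, and WM115, melanoma cells derived from a primary tumour of the skin. There were 3 arrays for WM266-4 and 3 for WM115, labelled as biological repeats, all from cells grown in DMEM with 10% serum and with no treatment named. The first repeat of each line used Human Gene 1.0 ST arrays and a miRNeasy RNA kit, and repeats 2 and 3 used Human Gene 2.1 ST arrays and a Hybrid-R RNA kit. Each group is a single cell line, so a difference is between these lines and not between primary and metastatic tumours in general.

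Most semaphorins signal through plexins, whose intracellular part inactivates small Ras-family GTPases and loosens integrin adhesion and the actin network. Secreted class 3 semaphorins mostly need a neuropilin co-receptor, whereas classes 4 to 7 are membrane-bound and bind plexins directly. Slits repel cells that carry Robo receptors, and netrins attract through DCC and neogenin and repel through UNC5 receptors. In skin, melanocytes and their neural crest precursors migrate through tissue that contains these cues, and several of the families have been studied in melanoma spread.

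SLIT2, NTN4 and the netrin receptor gene NEO1 were lower in WM266-4, while the class 3 semaphorins moved both ways, with SEMA3E and SEMA3B higher and SEMA3A and SEMA3C lower. Of the 39 tested members, 14 were called at an adjusted p under 0.05 (35.9%), against 26.9% of all 12436 genes tested. Called higher in WM266-4 were 4 members (10.3%), against 13.6% of all genes, and called lower were 10 (25.6%), against 13.3%. Among the 10, SLIT2, SLIT3 and NTNG1 had WM266-4 means of 3.45, 3.74 and 3.24. These lay under the level that a gene's mean over all arrays had to reach for testing. Passing it required a higher WM115 signal, so the filter fixed their direction. The 4 called higher had WM115 means above that level, the lowest being 4.41 for SEMA6B. The all-gene shares came from the same filter. Without WM115 replicate 2, 9 members were called (23.1%), against 14.3% of all genes tested. Without WM266-4 replicate 2, 9 were also called (23.1%), against 11.1%. The called genes with a change of 1 log2 or more numbered 13 (33.3% of tested members), against 7.82% of all genes tested. SLIT2, SLIT3 and NTNG1 are among these 13. The median difference of the 39 was -0.06 log2 (WM266-4 minus WM115), against 0.01 over all genes tested, and the median absolute difference was 0.37, against 0.25. All 49 members, tested or not, had a median difference of -0.06, and the 3 arrays of each line did not overlap for 28 of them (57.1%), against 44.2% of all genes. Among tested members that number was 21 of 39, against 51.7% of all genes tested, so it lay near the background. Levels below are the deposited log2 signals in the order of repeats 1, 2 and 3, differences are WM266-4 minus WM115 with the standard error of the limma fit (SE), and adjusted p values come from that fit.

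**Figure D1:**
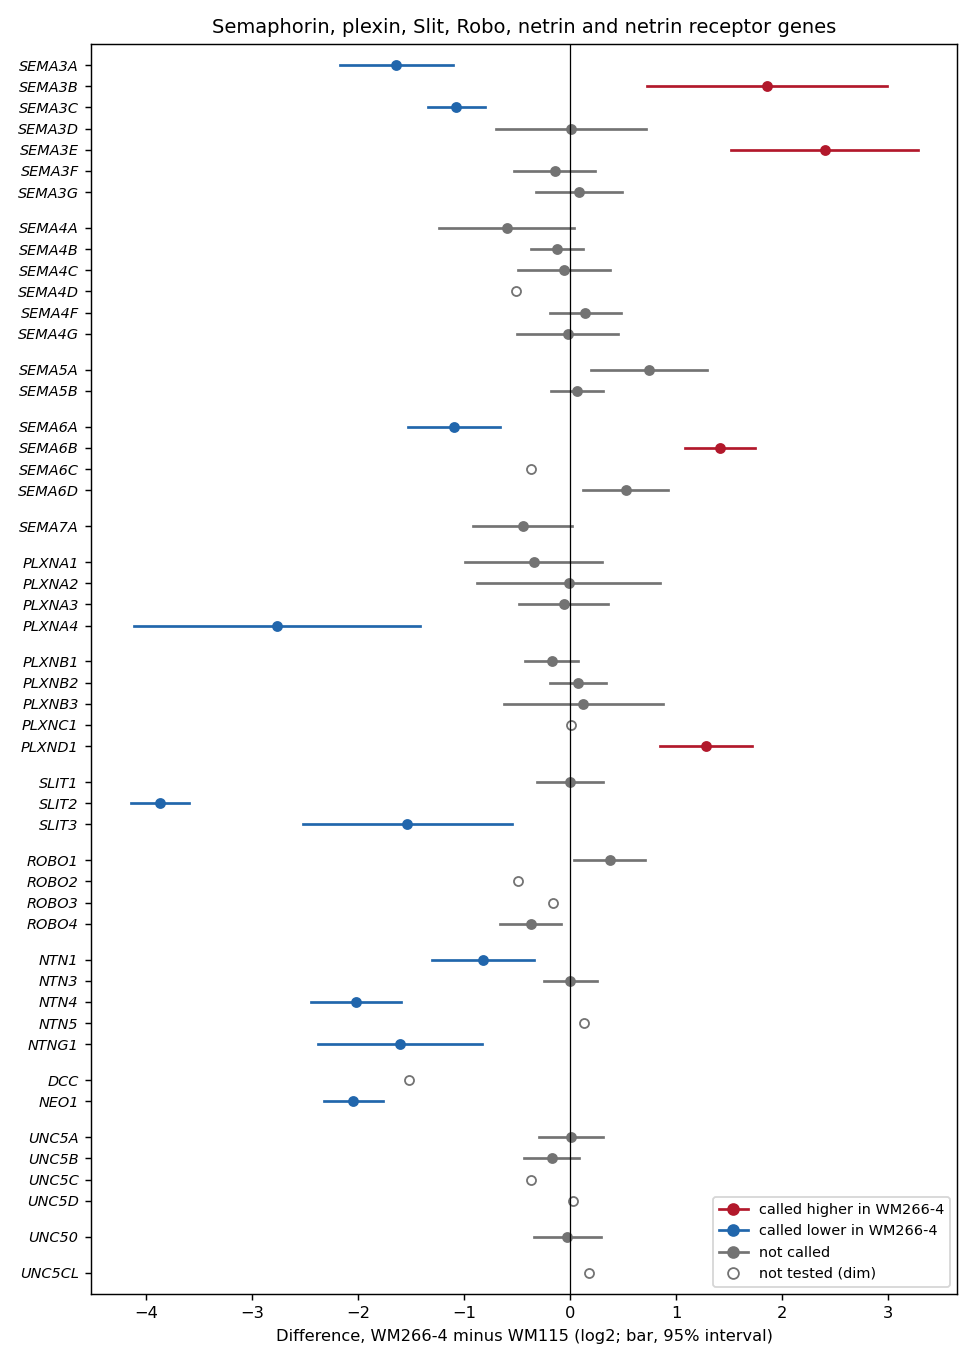
The horizontal axis is the difference between the lines, WM266-4 minus WM115, in log2 units for each of the 49 genes, grouped by family. Bars are 95% intervals of the limma fit, red and blue mark the 4 genes called higher and the 10 called lower in WM266-4, and open circles are the 10 genes too dim to test. SLIT2 lies farthest from 0, at -3.88.

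The median level over tested genes lay between 6.12 and 6.18 on all 6 arrays. Melanocytic markers were called higher in WM266-4 for 5 of 7 genes, with summed linear signals of 2949 to 4798 in WM266-4 and 911 to 1501 in WM115. SOX10 and S100B were not called, and the pigment enzyme TYR stood at 10.08 ± 0.31 in WM266-4 and 3.17 ± 0.26 in WM115 (SD, n = 3), so WM115 had little signal for it. Of 5 neuronal markers, 3 were tested and all 3 fell, with summed signals of 83.7 to 87.1 in WM266-4 and 162 to 193 in WM115. The synaptic protein SNAP25 led them, at 3.79 ± 0.30 in WM266-4 and 5.97 ± 0.37 in WM115. In WM266-4, SNAP25 and GAP43 (mean 3.963) lay under the level that a gene's mean over all arrays had to reach for testing. Passing it required a higher WM115 signal, so the filter fixed their direction. SYT1 was above that level in both lines, at 5.05 in WM266-4 and 6.03 in WM115. The untested RBFOX3 and STMN2 had means of 3.82 and 3.09 in WM266-4, against 3.85 and 3.05 in WM115. Of 5 fibroblast markers only COL3A1 was called, lower in WM266-4, and the summed signals were 68.0 to 74.9 in WM266-4 and 112 to 154 in WM115. Of the endothelial, leukocyte and keratinocyte markers, a single endothelial gene was bright enough to test, and it was not called. COL3A1 also lay under the test level in WM266-4, at a mean of 3.81, and entered through its WM115 signal. TYR, MLANA, PMEL and DCT lay under it in WM115, at means of 3.17, 3.60, 3.62 and 2.79. They entered through their WM266-4 signal, whereas MITF was above the level in both lines (7.38 in WM266-4, 4.55 in WM115). The part of the neuronal and fibroblast genes in the guidance results was not tested. In bulk RNA, fewer cells with a transcript and less transcript per cell cannot be told apart.

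Among the secreted class 3 semaphorins, 4 of 7 were called, 2 in each direction. SEMA3E (ENSG00000170381), which binds PLXND1 without a neuropilin, had 7.28, 8.42 and 8.09 in WM266-4, against 6.11, 5.16 and 5.31 in WM115. Every WM266-4 array was above every WM115 array, and the gap was narrowest in the first repeat. The difference was 2.40 (SE 0.37, adjusted p = 0.00638), a ratio of 5.29 between the mean signals. SEMA3B (ENSG00000012171), a neuropilin ligand studied as a tumour suppressor, had 6.43, 7.76 and 7.64 in WM266-4, against 6.21, 5.08 and 4.96 in WM115. Its groups did not overlap, but the first-repeat arrays lay only 0.22 apart. The difference was 1.86 (SE 0.47, adjusted p = 0.0310). That call did not hold without any single array from repeats 2 and 3, with the replicate number as a block or with a robust prior (adjusted p up to 0.119).

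SEMA3A (ENSG00000075213), the repellent ligand of neuropilin-1 and A-type plexins, had 8.09, 7.68 and 7.57 in WM266-4, against 9.15, 9.30 and 9.81 in WM115. All WM266-4 arrays were lower than all WM115 arrays, and the difference was -1.64 (SE 0.22, adjusted p = 0.00441). SEMA3C (ENSG00000075223), which can act through either neuropilin, had 7.57, 7.60 and 7.58 in WM266-4, against 8.69, 8.51 and 8.77 in WM115. The 3 WM266-4 values were nearly equal, though the removal of an array-version effect before deposit enters that spread. The difference was -1.07 (SE 0.11, adjusted p = 0.00212). SEMA3D, SEMA3F and SEMA3G, further neuropilin ligands, were not called. Their differences were 0.01, -0.15 and 0.08, and the widest interval was that of SEMA3D, from -0.70 to 0.72. In RefSeq for GRCh38.p14, SEMA3E, SEMA3A and SEMA3D are consecutive protein-coding genes on chromosome 7. The differences of these 3 neighbours, 2.40, -1.64 and 0.01, had no common direction.

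SEMA3E and its receptor gene PLXND1 were both called higher, and SLIT2 was called lower. The 300 bases around the start of each, mostly upstream of it (RefSeq, GRCh38.p14, 5′ to 3′ on the gene's strand), are printed because SEMA3E and PLXND1 are a ligand and its receptor, and SEMA3E and SLIT2 have the largest difference in each direction. Capitals mark an E-box. The motifs searched on both strands were the E-box CACGTG, the M-box core written as CATGTG, and the AP-1 motif, whose letters are TGANTCA. SEMA3E has 2 start windows in the table and the first is shown.
SEMA3E, chr7:83649090-83649389, minus strand: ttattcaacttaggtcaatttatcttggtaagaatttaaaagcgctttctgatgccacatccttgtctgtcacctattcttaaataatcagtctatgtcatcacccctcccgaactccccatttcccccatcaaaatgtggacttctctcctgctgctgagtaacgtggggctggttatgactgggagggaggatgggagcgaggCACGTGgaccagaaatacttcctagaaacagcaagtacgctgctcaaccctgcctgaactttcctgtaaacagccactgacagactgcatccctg
PLXND1, chr3:129606627-129606926, minus strand: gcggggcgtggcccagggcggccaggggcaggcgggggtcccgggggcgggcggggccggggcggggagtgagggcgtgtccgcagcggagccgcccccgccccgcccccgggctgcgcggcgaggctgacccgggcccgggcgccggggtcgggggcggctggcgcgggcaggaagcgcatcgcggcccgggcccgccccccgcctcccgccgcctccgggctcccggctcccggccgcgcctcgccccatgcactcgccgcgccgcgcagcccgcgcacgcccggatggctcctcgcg
SLIT2, chr4:20251655-20251954, plus strand: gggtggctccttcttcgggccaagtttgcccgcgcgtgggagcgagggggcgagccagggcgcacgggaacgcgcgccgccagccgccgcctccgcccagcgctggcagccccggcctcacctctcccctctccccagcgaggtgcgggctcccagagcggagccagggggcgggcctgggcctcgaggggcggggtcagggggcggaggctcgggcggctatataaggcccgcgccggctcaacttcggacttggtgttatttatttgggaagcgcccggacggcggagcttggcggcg
The SEMA3E window was 47.3% G or C, against 87.3% for PLXND1 and 74.3% for SLIT2, and it was the only window of these 3 with CACGTG. That hexamer stood in 7.26% of all 35116 windows of this length, CATGTG in 11.1% and TGANTCA in 7.71%. Of 70 windows for 42 members found in the table, 3 held CACGTG, 7 held CATGTG and 1 held TGANTCA. A match is a run of letters and not a measured binding site, and a window without one says nothing of a factor.

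Of the transmembrane class 6 semaphorins, 3 were tested, 1 rose and 1 fell. SEMA6B (ENSG00000167680), a ligand of PLXNA4, had 5.76, 6.01 and 5.72 in WM266-4, against 4.45, 4.54 and 4.24 in WM115. The lines were apart in every repeat, and the difference was 1.42 (SE 0.14, adjusted p = 0.00169). SEMA6A (ENSG00000092421), a ligand of PLXNA2 and PLXNA4, had 5.12, 5.36 and 5.25 in WM266-4, against 6.48, 6.56 and 5.97 in WM115. The groups did not overlap, and the difference was -1.10 (SE 0.18, adjusted p = 0.00819). SEMA6D, a ligand of PLXNA1, had 0.53 (SE 0.17, adjusted p = 0.0613), with all WM266-4 arrays above all WM115 arrays. SEMA6C was too dim to test, at 3.16 ± 0.31 in WM266-4 and 3.53 ± 0.19 in WM115 (SD, n = 3).

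In classes 4, 5 and 7 no semaphorin was called by limma among 8 tested. In the same limma fit SEMA5A alone had an unadjusted p under 0.05, at 0.0151. SEMA5A, a semaphorin with thrombospondin repeats, came nearest, with 9.35, 9.08 and 8.66 in WM266-4, against 7.96, 8.51 and 8.39 in WM115. Its groups did not overlap, and its difference of 0.75 (SE 0.23) had an adjusted p of 0.0541. The 3 pairs gave 1.39, 0.58 and 0.27, so the gap was widest on the 1.0 pair, which has no replicate. SEMA5A was called without WM266-4 replicate 3, with line alone, with a filter at the 50th percentile and with a trended prior. It was not called on the 2.1 arrays alone. SEMA7A, a lipid-anchored ligand of integrins and PLXNC1, had 6.13 ± 0.16 in WM266-4 and 6.58 ± 0.34 in WM115, a difference of -0.45 (SE 0.19, adjusted p = 0.139). SEMA4A had a difference of -0.60 (SE 0.26, adjusted p = 0.145). SEMA4B, SEMA4C, SEMA4F, SEMA4G and SEMA5B lay between -0.12 and 0.14, with intervals reaching from -0.50 to 0.48. SEMA4D, the classical ligand of PLXNB1, was under the level set for testing, with 3.65, 3.56 and 3.66 in WM266-4, against 4.11, 4.13 and 4.14 in WM115. Its groups did not overlap, and in the fit without a filter its difference of -0.51 was called (adjusted p = 0.0121). That fit called 17 of the 49 members, against 19.4% of all genes.

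**Figure D2:**
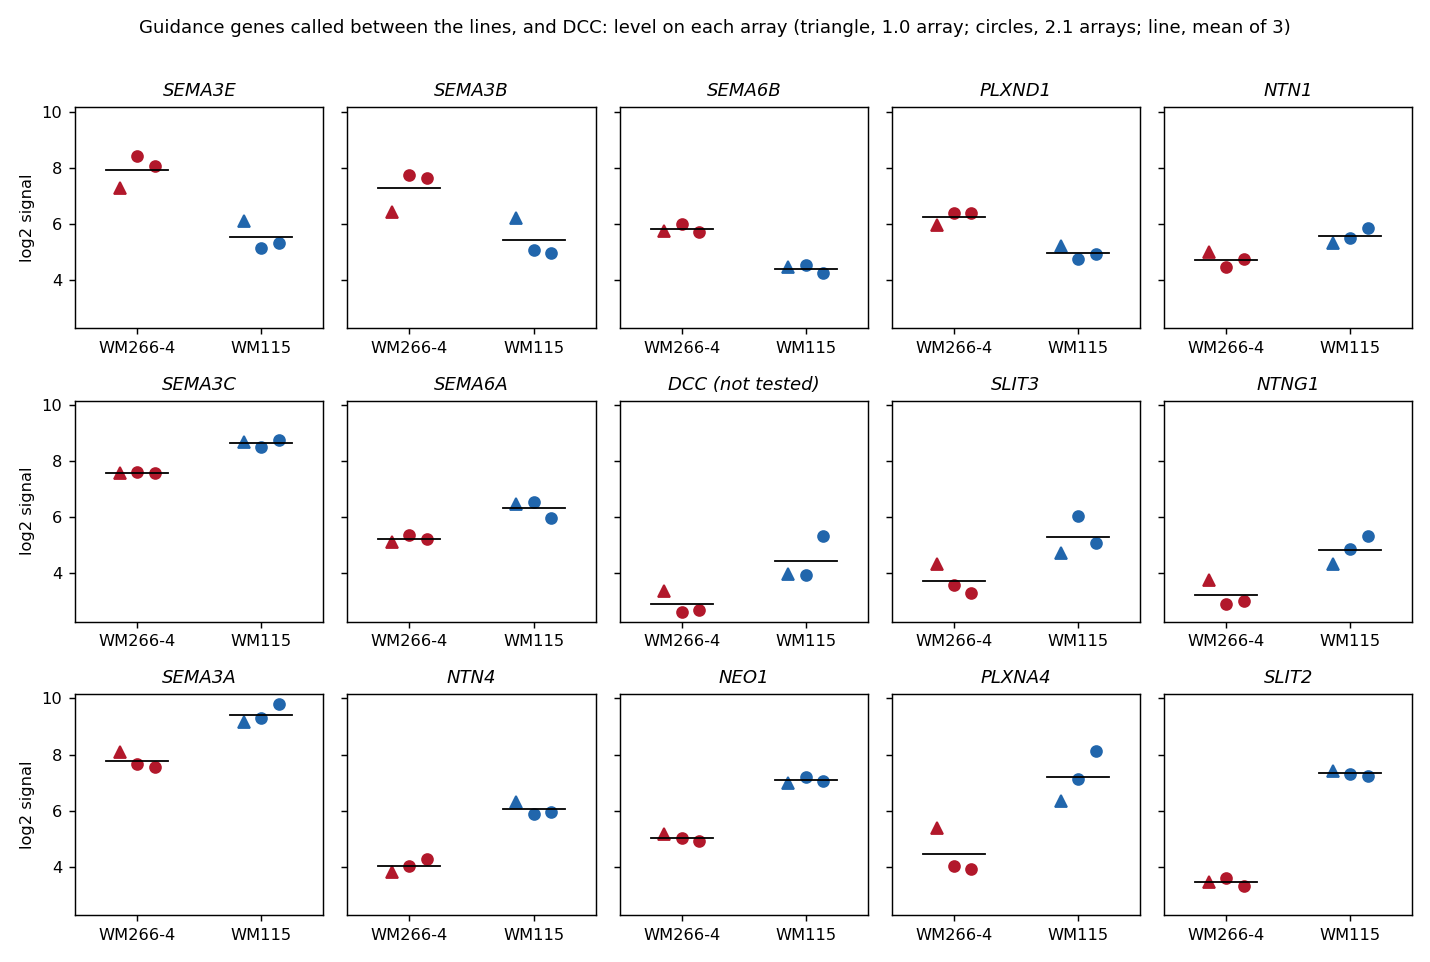
Each panel gives a gene's log2 signal on the 3 WM266-4 arrays (left) and the 3 WM115 arrays (right), with triangles for 1.0 arrays, circles for 2.1 arrays and a line at the mean of 3. The 14 called members and DCC, which was too dim to test, run from the largest increase, SEMA3E, to the largest decrease, SLIT2. No panel shows overlap between the lines, and the triangles of SEMA3B and PLXNA4 lie closer together than the circles.

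Of 8 tested plexins, PLXND1 rose, PLXNA4 fell and 6 were not called. PLXND1 (ENSG00000004399), the receptor of SEMA3E, had 5.96, 6.39 and 6.38 in WM266-4, against 5.21, 4.74 and 4.92 in WM115. All WM266-4 arrays were above all WM115 arrays, with a difference of 1.28 (SE 0.18, adjusted p = 0.00509) and a ratio of 2.44 between mean signals. Ligand and receptor of this pair were thus both higher in WM266-4. PLXNA4 (ENSG00000221866), a receptor for SEMA3A with neuropilin-1 and for SEMA6A and SEMA6B, had 5.37, 4.04 and 3.92 in WM266-4, against 6.34, 7.13 and 8.14 in WM115. The lines did not overlap, but the values within each line were widely spread, a spread that the removal of an array-version effect also enters. The difference was -2.76 (SE 0.56, adjusted p = 0.0162). It was no longer called without WM115 replicate 2, WM266-4 replicate 2 or WM266-4 replicate 3 (highest adjusted p 0.0734).

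The other A-type plexins, PLXNA1, PLXNA2 and PLXNA3, had differences of -0.35 (SE 0.27), -0.01 (SE 0.36) and -0.06 (SE 0.18). The intervals of PLXNA1 and PLXNA2 were wide, from -0.99 to 0.30 and from -0.88 to 0.85. PLXNB1, the SEMA4D receptor, had 5.41 ± 0.08 in WM266-4 and 5.59 ± 0.07 in WM115, a difference of -0.17 (SE 0.10, adjusted p = 0.264). PLXNB2, a receptor of SEMA4C, had 8.58 ± 0.09 in WM266-4 and 8.51 ± 0.09 in WM115, with an interval of the difference from -0.19 to 0.34. PLXNB3, a receptor of SEMA5A, had a difference of 0.12 (SE 0.31). PLXNC1, the SEMA7A receptor, was too dim to test, at 3.52 ± 0.05 in WM266-4 and 3.52 ± 0.08 in WM115.

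All 3 Slits were tested and 2 fell, while neither of the 2 tested Robo receptors was called by limma, both with an unadjusted p under 0.05 (0.0334 for ROBO1 and 0.0195 for ROBO4). SLIT2 (ENSG00000145147), the secreted ligand of ROBO1, had 3.45, 3.58 and 3.32 in WM266-4, against 7.41, 7.32 and 7.25 in WM115. The SDs were 0.13 in WM266-4 and 0.08 in WM115, less than the gap between the lines. An array-version effect was removed before deposit, and that removal enters these SDs. The difference was -3.88 (SE 0.11, 95% interval -4.15 to -3.60, adjusted p = 3.17e-05), a mean signal 14.7 times as high in WM115. Its WM266-4 mean of 3.45 lay under the test level of 3.97, so the filter fixed the direction and the ratio may include background. SLIT3 (ENSG00000184347), a Slit that also binds Robo receptors, had 4.34, 3.58 and 3.30 in WM266-4, against 4.73, 6.05 and 5.07 in WM115. The first repeat gave -0.39, the smallest gap of the 3, and the difference of -1.54 (SE 0.41, adjusted p = 0.0365) was the weakest call in the set. The call failed without any single array from repeats 2 and 3, under the replicate block and under a robust prior (adjusted p up to 0.129). The WM266-4 mean of SLIT3 (3.74) also lay under the test level. SLIT1 had 4.33 ± 0.14 in WM266-4 and 4.33 ± 0.14 in WM115, with an interval of the difference from -0.31 to 0.31.

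ROBO1, the main Slit receptor on many cell types, had 9.02, 9.36 and 9.13 in WM266-4, against 8.93, 8.63 and 8.82 in WM115. The lines did not overlap, but the difference of 0.38 (SE 0.14) had an adjusted p of 0.0938. ROBO4, a Robo known from endothelial cells, had 4.31, 4.47 and 4.32 in WM266-4, against 4.81, 4.83 and 4.58 in WM115, a difference of -0.37 (SE 0.12, adjusted p = 0.0642). ROBO2 and ROBO3 were too dim to test. ROBO2 had 3.11, 3.10 and 3.18 in WM266-4, against 3.65, 3.68 and 3.53 in WM115, and was called without the filter (adjusted p = 0.0168). ROBO3, a divergent Robo that modulates Slit responses at the midline, had 3.71 ± 0.08 in WM266-4 and 3.87 ± 0.07 in WM115.

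Among 5 netrins, 4 were tested and 3 fell. NTN4 (ENSG00000074527), a netrin that binds laminin in basement membranes, had 3.82, 4.01 and 4.28 in WM266-4, against 6.32, 5.89 and 5.96 in WM115. The gap was present in every repeat, with a difference of -2.02 (SE 0.18, adjusted p = 0.00123). NTN1 (ENSG00000065320), the classical ligand of DCC and UNC5 receptors, had 4.998, 4.45 and 4.75 in WM266-4, against 5.31, 5.50 and 5.85 in WM115. Its difference of -0.82 (SE 0.20, adjusted p = 0.0275) was the only call under 1 log2, and it failed without any single array from repeats 2 and 3 (adjusted p up to 0.103). NTNG1 (ENSG00000162631), a lipid-anchored netrin-G that binds LRRC4C rather than DCC, had 3.78, 2.93 and 3.02 in WM266-4, against 4.35, 4.86 and 5.33 in WM115. Its difference was -1.60 (SE 0.32, adjusted p = 0.0155). NTNG1 was not called without WM266-4 replicate 2 or 3 (adjusted p up to 0.0702) and was too dim to test without WM115 replicate 2 or 3. Its WM266-4 mean of 3.24 lay under the test level, so the filter fixed its direction. NTN3 had 4.26 ± 0.04 in WM266-4 and 4.25 ± 0.10 in WM115, and NTN5 was too dim to test, at 3.22 ± 0.15 in WM266-4 and 3.09 ± 0.06 in WM115.

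Neogenin, NEO1 (ENSG00000067141), a receptor of netrins and of the repulsive guidance molecules, had 5.16, 5.01 and 4.92 in WM266-4, against 6.99, 7.18 and 7.05 in WM115. Its SDs, which the removal of an array-version effect before deposit enters, were 0.12 in WM266-4 and 0.10 in WM115. The groups did not overlap. The difference was -2.05 (SE 0.12, adjusted p = 0.000294), a mean signal 4.14 times as high in WM115. Its relative DCC was under the level set for testing, with 3.37, 2.64 and 2.70 in WM266-4, against 4.00, 3.96 and 5.33 in WM115. WM115 replicate 3 stood above the other arrays of that line, and without the filter the difference of -1.53 had an adjusted p of 0.0493. The UNC5 receptors, which carry repulsion and can signal cell death without ligand, were not called, and neither tested receptor had an unadjusted p under 0.05 (0.943 for UNC5A and 0.152 for UNC5B). UNC5A had 4.07 ± 0.18 in WM266-4 and 4.06 ± 0.02 in WM115, and UNC5B had 4.66 ± 0.09 in WM266-4 and 4.83 ± 0.08 in WM115, a difference of -0.18 (SE 0.11). UNC5C, at 2.87 ± 0.04 in WM266-4 and 3.24 ± 0.12 in WM115, and UNC5D, at 3.36 ± 0.10 in WM266-4 and 3.33 ± 0.07 in WM115, were too dim to test. UNC50 had a difference of -0.02 (SE 0.13), and UNC5CL, also too dim, had 4.03 ± 0.09 in WM266-4 and 3.86 ± 0.02 in WM115.

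SLIT2, SLIT3 and NTNG1, and SEMA4A, which was not called, had WM266-4 means under the level of 3.97 below which genes were not tested. They entered the test through their WM115 signal. No detection calls were used here, so a low signal is not read as absence, and the ratios for these genes compare signals that may include background.

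The size of several differences depended on the array version. In a limma test of whether the difference on the 2.1 arrays departed from that on the 1.0 pair, 7 of 39 tested members passed (17.9%), against 5.48% of all genes tested. SEMA3B differed by 0.22 on the 1.0 pair and 2.68 on the 2.1 arrays, SEMA3E by 1.18 and 3.02, PLXNA4 by -0.97 and -3.66, and NTNG1 by -0.57 and -2.12. For these 4 genes the sign was shared and the first repeat was smaller. PLXNA2 differed by 1.21 on the 1.0 pair and -0.63 on the 2.1 arrays, PLXNA1 by -1.19 and 0.08, and PLXNB3 by -0.90 and 0.63, so these plexins had opposite signs. In contrast, SLIT2 gave -3.97, -3.74 and -3.92 in the 3 pairs, NEO1 gave -1.84, -2.17 and -2.13, and SEMA3C gave -1.12, -0.91 and -1.19. Array version, RNA kit and repeat changed together and cannot be told apart, and the 1.0 pair has no replicate, so the error of this test came from repeats 2 and 3. How far the removal of the version effect before deposit altered the differences within a version is not known. On the 2.1 arrays alone 20 members were called (51.3%, against 31.5% of all genes tested), the 14 above plus SEMA4A, PLXNA2, SEMA6D, SEMA7A, ROBO1 and PLXNB3.

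**Figure D3:**
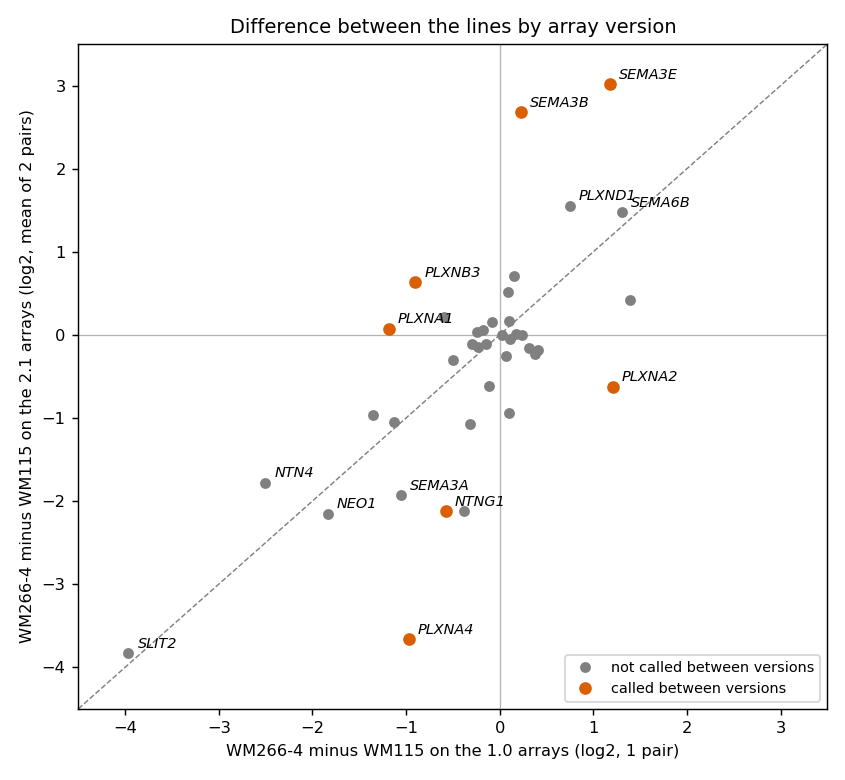
Each point is a tested guidance gene, with its WM266-4 minus WM115 difference in log2 units on the single pair of 1.0 arrays (horizontal) and averaged over the 2 pairs of 2.1 arrays (vertical). The dashed line marks equal differences, and orange marks the 7 genes whose differences departed between versions by limma. SLIT2 and NEO1 lie near the line, and PLXNA1, PLXNA2 and PLXNB3 lie in quadrants of opposite sign.

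Genes that work with these cues were taken from 5 lists of partners. The lists were chosen with earlier results of these data known, so the shares called in them are descriptions only. Of 9 tested co-receptors, 3 rose and 3 fell (66.7% called, against 26.9% of all genes tested), with a median of -0.06. NRP1, neuropilin-1, had 7.78, 8.15 and 8.33 in WM266-4, against 9.65, 9.03 and 9.31 in WM115, and its difference was -1.24 (SE 0.21, adjusted p = 0.00903). NRP2, neuropilin-2, had 8.39, 8.81 and 8.66 in WM266-4, against 8.16, 7.77 and 7.92 in WM115, and its difference was 0.67 (SE 0.16, adjusted p = 0.0261). NRP1 therefore fell together with its ligand SEMA3A and with PLXNA4, while NRP2 rose. The adhesion proteins L1CAM (2.35, SE 0.33) and CHL1 (2.83, SE 0.72), which associate with neuropilins, were higher. On the 2.1 arrays alone L1CAM differed by 1.79 and CHL1 by 4.05. In the first repeat CHL1 had 7.39 in WM266-4 and 6.99 in WM115, and L1CAM had 9.08 and 5.60. The receptor kinases KDR (-1.91, SE 0.26) and ERBB2 (-1.42, SE 0.18) were lower. The calls of NRP2 and CHL1 failed without any single array from repeats 2 and 3 and with the replicate block (adjusted p up to 0.108 for NRP2 and 0.121 for CHL1), and that of CHL1 also with a robust prior.

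Of 9 tested related ligands and receptors, 3 fell and 0 rose, with a median of -0.37 (33.3% called, against 26.9% of all genes tested). They were FLRT2 (-1.49, SE 0.23) and FLRT3 (-1.39, SE 0.36), membrane ligands of UNC5 receptors, and RGMB (-0.88, SE 0.13), a repulsive guidance molecule that binds neogenin, which itself fell. RGMB was called under all 15 alternatives (adjusted p up to 0.0353). The FLRT3 difference was -0.80 on the 2.1 arrays, and its call was lost without WM115 replicate 2, WM115 replicate 3 or WM266-4 replicate 2, with the replicate block and with a robust prior (adjusted p up to 0.106). Of 26 tested plexin effectors, 4 rose and 3 fell, with a median of -0.06. The share called was 26.9%, the same as over all genes tested (26.9%). The kinase FES (0.93, SE 0.11) and the actin-oxidising enzyme MICAL1 (0.90, SE 0.15) rose most, FES with a WM115 mean of 3.95 that lies under the test level of 3.97, so that it entered through its WM266-4 signal. CRMP1 (-1.49, SE 0.30), a mediator of SEMA3A collapse signals, and RRAS (-1.06, SE 0.22), a GTPase that plexins switch off, fell most. The RRAS call did not survive removal of WM266-4 replicate 2 or 3, with an adjusted p up to 0.0775. That of CRMP1 failed without WM115 replicate 2 and when repeated rows were averaged (adjusted p up to 0.0673).

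Of 30 tested effectors of Robo, DCC and UNC5 receptors, 4 rose and 4 fell (26.7% called, against 26.9% of all genes tested), with a median of -0.11. Among those that fell, SRGAP3 and EVL had WM266-4 means of 3.80 and 3.85, against 4.30 and 4.55 in WM115. Both lay under the test level of 3.97 in WM266-4 and entered through their WM115 signal, so the filter fixed their direction. DAPK1, a death-associated kinase that acts downstream of UNC5B, had 7.35, 6.75 and 6.53 in WM266-4, against 3.77, 4.78 and 4.30 in WM115, a difference of 2.59 (SE 0.31, adjusted p = 0.00325). MYO10, a filopodial motor that carries DCC, rose by 1.17 (SE 0.15), and the kinase PAK1 (-0.98, SE 0.12) and the actin regulator VASP (-0.74, SE 0.17) fell. VASP was not called without any single array from repeats 2 and 3 (adjusted p up to 0.0868). The GTPases CDC42, RAC1 and RHOA, on which these receptors converge and of which CDC42 and RHOA stand in the study's title, had differences of 0.07 (SE 0.11), 0.02 (SE 0.12) and 0.08 (SE 0.10) and were not called. These are transcript levels, and GTPase activity was not measured on the arrays.

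Of 10 tested proteases that process guidance molecules, 2 rose and 2 fell, with a median of -0.14 (40% called, against 26.9% of all genes tested). PCSK5 (-1.85, SE 0.31) and FURIN (-0.44, SE 0.13), proprotein convertases of the kind that cut class 3 semaphorins, fell, while the convertase PCSK6 (1.30, SE 0.16) and the gamma-secretase subunit PSEN2 (0.65, SE 0.10) rose. PCSK5 had a WM266-4 mean of 3.81, under the test level, and entered through its WM115 signal. The FURIN call (adjusted p = 0.0484) failed without any single array of either line, on the 2.1 arrays alone, with the replicate block and without the filter (adjusted p up to 0.163).

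**Figure D4:**
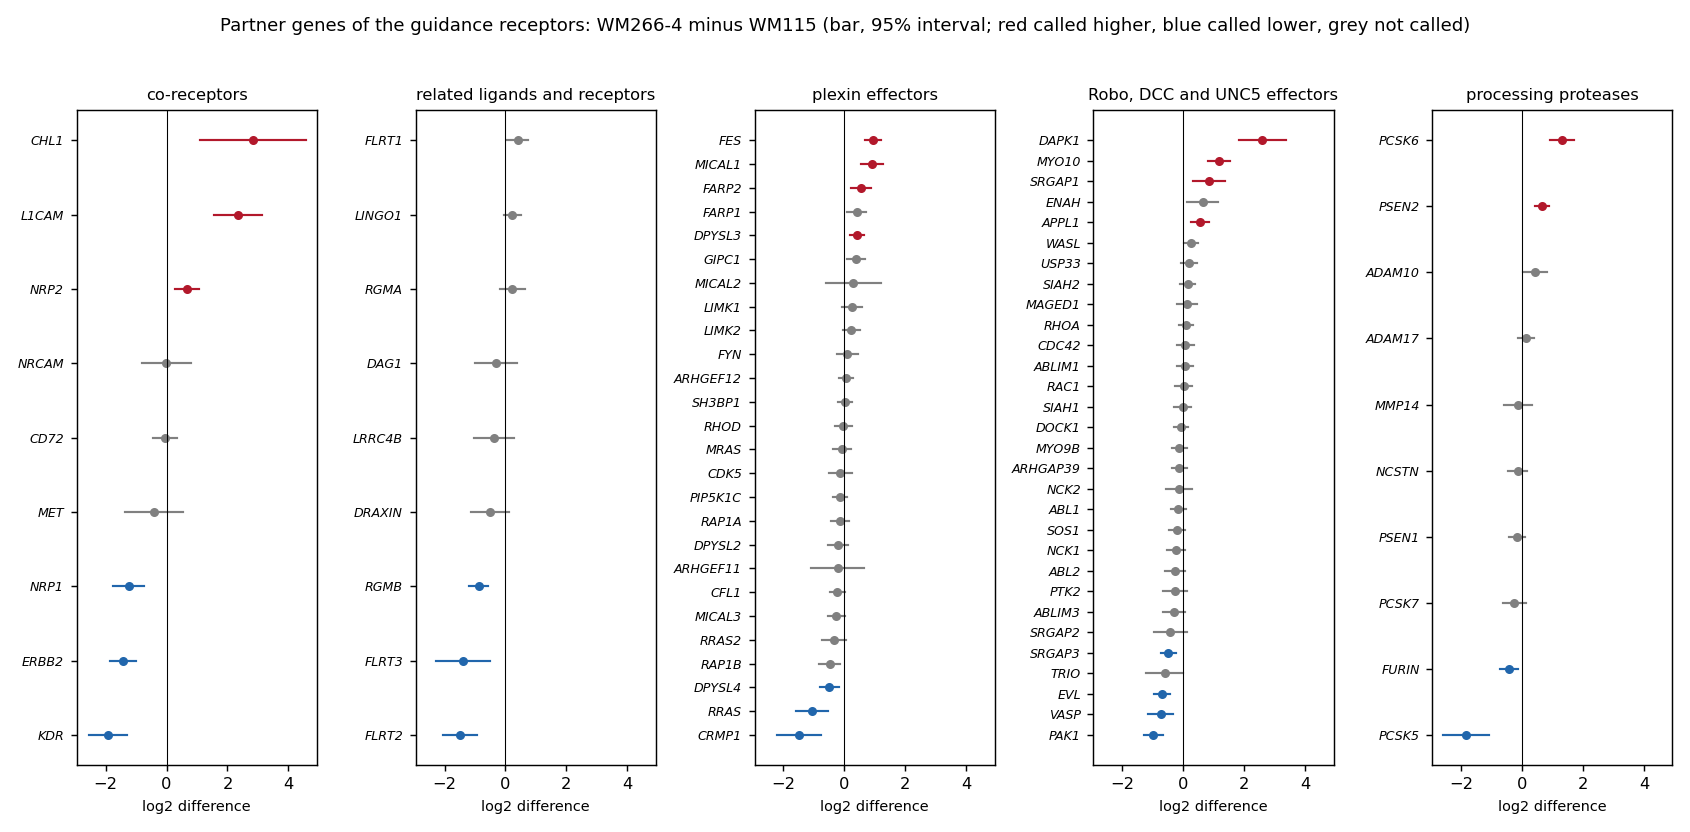
Each panel shows a list of partner genes, with the WM266-4 minus WM115 difference in log2 units on the horizontal axis and 95% intervals of the limma fit as bars. Red marks genes called higher in WM266-4, blue those called lower and grey those not called. The co-receptor panel has 6 of 9 genes called, and its extremes are CHL1 at 2.83 and KDR at -1.91.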

How the data were processed

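Per the submitters' processing notes, the authors' tools included Expression Console and the RMA method, with versions not given in the sources used here. The deposited gene-named table holds log2 signals of 6 arrays. The deposited tables per array version were not used, because their probe sets are not paired with genes here. In the gene-named table, the mean of each gene over the 1.0 arrays nearly equals that over the 2.1 arrays (median gap 0.0031 log2, at most 0.062 among the guidance genes). An array-version effect was therefore removed gene by gene before deposit, by a method not given in the sources used here, and the level of a line in repeat 1 cannot be set against its later repeats. This removal also enters the SDs.

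The 18887 rows gave 17766 genes, keeping the brightest row of a repeated symbol. Genes under the 30th percentile of the mean over 6 arrays (3.97) were not tested, leaving 12436. The model was a limma fit (version 3.58.1, R 4.3.3) with line and array version as terms and eBayes moderation (3 residual and 3.38 prior degrees of freedom), and p values were adjusted by Benjamini-Hochberg over all of them. Genes were called at an adjusted p under 0.05. Precision is limited by there being 3 arrays per line.

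The members and lists were chosen with earlier results of these data known. Every member is named; called members and those differing by at least 1 log2 have all 6 values. Of partner lists, the largest 2 called genes per direction are named, plus NRP1 and NRP2. CDC42, RAC1, RHOA, RGMB, SRGAP3 and EVL are named outside that rule. All 49 members matched RefSeq symbols. Alternatives were leave-one-out fits, other covariates, filters, normalization and priors.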

Additional observations from a re-analysis of the deposited data

Results flagged for a closer look

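The 7 guidance genes below differed between the lines by unequal amounts on the array versions, by limma's line-by-version term. The values are the difference on the 2.1 arrays minus that on the 1.0 pair, in log2. They were 2.45 for SEMA3B (adjusted p = 0.00104), 1.84 for SEMA3E (0.00741), 1.53 for PLXNB3 (0.0137) and 1.26 for PLXNA1 (0.0376). They were -2.69 for PLXNA4 (0.0186), -1.83 for PLXNA2 (0.00350) and -1.54 for NTNG1 (0.0228). The 1.0 arrays have 1 pair, so its own spread is not in the test, and which of array version, RNA kit or repeat goes with these values cannot be told apart. How far the removal of the version effect before deposit altered these values is not known. No test for single outlying arrays was run on groups of 3, though fits that leave out single arrays are reported.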

How the results depend on the processing

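Over 15 alternatives, 9 of the 14 called guidance genes were called in every one that tested them: SLIT2, NEO1, NTN4, SEMA3A, SEMA3C, SEMA3E, SEMA6A, SEMA6B and PLXND1. The calls that were lost are given beside each gene in the results, apart from SRGAP3 and EVL, whose calls were not followed. No difference changed sign among the 14 called guidance genes and the 21 other called partner genes named. SLIT2, SLIT3, NTNG1, PCSK5 and FES passed the test level only through the line with the higher signal, so the filter fixed their sign. The alternatives also share most of their arrays, so a constant sign is not separate support. On leaving out single arrays, 9 to 20 members were called (3 to 7 higher, 6 to 13 lower), and 1383 to 3925 of all genes (668 to 1982 higher, 715 to 1961 lower). The higher counts came from omitting either first-repeat array. With array version in the fit, the remaining 1.0 array then carries nothing on the lines, so these alternatives and the 2.1 arrays alone rest on the same differences and are in effect 1 alternative. The lowest count of members came from omitting WM115 replicate 2 or WM266-4 replicate 2. Members called higher were 7 in place of 4 on the 2.1 arrays alone and 7 with line alone, and members called lower were 6 in place of 10 with a filter at the 50th percentile, which tests 22 members. The median over tested members turned to 0.02 without WM115 replicate 2 and otherwise lay below 0. With the replicate block, 12 members were called (30.8%, against 19.3% of all genes tested), 9 lower and 3 higher, without SEMA3B and SLIT3. Whether the replicate numbers pair the arrays could not be decided from deviations within each line. Deviations of same-numbered arrays correlated at -0.998, -0.26 and -0.40 across genes. WM266-4 replicate 3 with WM115 replicate 2 gave -0.51, and WM266-4 replicate 2 with WM115 replicate 3 gave -0.47. The removal of the version effect before deposit fixes the first value and also enters the others. Signal over background was not assessed.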
